A study of Mus musculus with 6 samples.

Results

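The colony-stimulating factors and stromal hematopoietic cytokines examined here were Csf1, Csf2, Csf3, Kitl, Il7, Il15, Il33, Il34, Tslp and Flt3l, in mouse microvascular endothelial cells. Members were found as non-control spots whose description or design sequence named one of these 10 genes, which gave 13 probes on 31 spots out of 55681 probes and 59305 spots per array. Expression was measured in 1G11-mock cells and in 1G11-SOD3 cells, which overexpress Sod3, the extracellular superoxide dismutase. Both lines had spent 6 h in conditioned medium of N202.1A cells, a mouse mammary cancer line, and no unstimulated cells stand beside them. The labels give the strain as C57BL/6NCrLBR, and each line is a single transfected line for which the promoter and the number of clones are not given in the sources used here. RNA of 3 biological replicates per line was hybridized to 6 single-color Agilent arrays on 1 slide.

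These cytokines are known for guiding blood cell production and immune cell behavior from non-hematopoietic cells. CSF1 and IL-34 act on macrophages through CSF1R, CSF2 and CSF3 drive granulocyte and macrophage lineages, and KITL and FLT3L keep progenitors and dendritic cell precursors alive. IL-7 and IL-15 maintain lymphocytes, whereas IL-33 and TSLP are epithelial and endothelial alarm signals that act on innate lymphoid cells, mast cells and dendritic cells. Several of their genes are textbook targets of NF-κB, the pathway that the study examined in SOD3-expressing endothelium.

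The array probes behind the main values were 60 bases long. Stretches of 30 bases are shown for Il33, the member that rose, and for Csf1, whose probes for different transcript variants gave different values. Both Csf1 variant 3 probes overlap by 31 bases, so that the last stretch belongs to each of them.
Il33, bases 1 to 30 of the probe designed on transcript variant 1: gtgaatctgtacgatatctttaaagtagta
Csf1, bases 1 to 30 of the probe designed on transcript variant 1: tgtggggcttacttagccttctggttacag
Csf1, bases 31 to 60 of the first probe of transcript variant 3, shared with the second: agctgcatcatatattgtcatatgttgagc
The array annotation, whose build is not given in the files, places the Il33 probe at chr19:30035101-30035160, the Csf1 variant 1 probe at chr3:107544333-107544392 and the variant 3 probes at chr3:107548550-107548609 and chr3:107548521-107548580.

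Values below are log2 intensities after background correction and quantile normalization. The scanner's flag for a signal well above background was carried by 34.2% to 36.0% of the spots on the 1G11-mock arrays. On the 1G11-SOD3 arrays it was carried by 38.4% to 43.8%, and 0 spots were saturated. Slide row 1 carried the 1G11-SOD3 arrays and slide row 2 the 1G11-mock arrays, and line and row cannot be told apart. A central block with 6606 of the spots, called the middle below, is given apart because a place effect is known there. A call required a change over 2-fold with an adjusted p below 0.05, and by it 0.660% of the 49526 probes outside the middle were called higher in 1G11-SOD3 and 1.20% lower. Of the 6435 probes with spots in the middle, 11.9% were called higher there and 0.0622% lower. As a check of the labels, Sod3, whose probe lay in the middle, read 13.61, 12.66 and 9.86 in 1G11-mock replicates 1 to 3 and 16.37, 16.30 and 16.26 in 1G11-SOD3 replicates 1 to 3. It rose by 4.27 on the log2 scale (limma adjusted p = 0.0076), and by 2.76 after an adjustment for place on the array that is described below. Of the endothelial markers, Vwf, Kdr and Eng were well above background on all arrays, Pecam1 on 2 of 3 arrays of each line, and Cdh5, Tek, Tie1 and Emcn on none. Of the hematopoietic markers, Itgam, Cd14 and Cd3e were well above background on all arrays, and Ptprc, Cd68, Adgre1 and Lyz2 on none.

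In these endothelial cells, 5 of the 10 cytokine genes were measurable. Csf1, Kitl, Il33 and Flt3l were well above background on all 6 arrays. Tslp was so on all 3 1G11-mock arrays and on 2 of 3 1G11-SOD3 arrays, replicate 1 being the exception. Csf3 and Il34 passed the limit on 1 array only, 1G11-SOD3 replicate 1, and Csf2, Il7 and Il15 on none, so no fold change is given for these 5 genes.

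**Figure D1:**
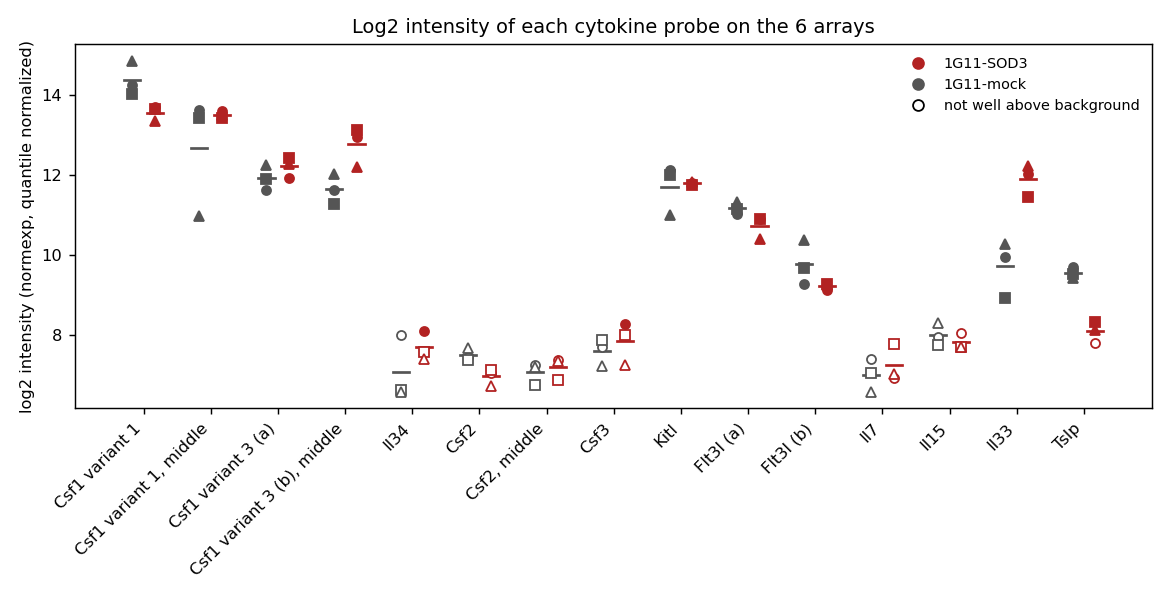
Log2 intensity (vertical axis) of each cytokine probe, with copies averaged within the middle of the array and outside it, on the 3 1G11-mock and the 3 1G11-SOD3 arrays. Circles, squares and triangles are replicates 1, 2 and 3, bars are means, and open symbols are values not well above background. Il33 lies higher and Tslp lower on all 3 1G11-SOD3 arrays, and the probes of Il34, Csf2, Csf3, Il7 and Il15 are open symbols apart from 1 value each of Il34 and Csf3.

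Il33 rose and Tslp fell in 1G11-SOD3 cells, and the other 8 genes passed no test outside the middle. That is 1 of 10 genes in each direction. Of all genes, each taken by its brightest probe outside the middle, 1.19% were called higher and 1.93% lower. The median log2 change over the 12 member values outside the middle was -0.04, and over all probes there it was -0.06. Both medians include probes that were not measurable, among the members those of Csf2, Csf3, Il7, Il15 and Il34. The arrays of the lines did not overlap for 5 of these 12 values, against 19.7% of all probes outside the middle. Csf2, well above background on no array, is among the 5, and the share over all probes also includes such probes. In the middle they did not overlap for 1 of 3 member values, against 28.9% of all probes there.

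Il33 encodes a nuclear cytokine of endothelial and epithelial cells that is released on cell damage and signals through the receptor ST2. Its log2 intensity was 9.94, 8.92 and 10.27 in 1G11-mock replicates 1 to 3 and 12.02, 11.44 and 12.21 in 1G11-SOD3 replicates 1 to 3. Every 1G11-SOD3 array thus lay above every 1G11-mock array, and replicate 2 was the lowest of each line. The means were 9.71 ± 0.70 and 11.89 ± 0.40 (SD, n = 3), a 4.53-fold increase with a log2 change of 2.18 (SE 0.35, 95% interval 1.42 to 2.94, limma adjusted p = 0.0064). Il33 was called higher with any 1 array left out (1.80 to 2.48, limma adjusted p up to 0.0451). It was also called after a smooth surface over row and column had been taken off each array, referred to as the position adjustment (2.27, limma adjusted p = 0.00238).

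Tslp encodes thymic stromal lymphopoietin, an IL-7-like cytokine that conditions dendritic cells. Its log2 intensity was 9.68, 9.51 and 9.42 in 1G11-mock and 7.79, 8.32 and 8.12 in 1G11-SOD3, in replicate order. The lines did not overlap, and the lowest value, 1G11-SOD3 replicate 1, was the one not well above background. The means were 9.54 ± 0.13 and 8.08 ± 0.26 (SD, n = 3), and the level was 2.75-fold lower in 1G11-SOD3 (log2 change -1.46, SE 0.23, 95% interval -1.97 to -0.95, limma adjusted p = 0.00606). Tslp was called lower with any 1 array left out (-1.57 to -1.31). With the position adjustment the change was -0.90, 1.86-fold lower, and no longer called (limma adjusted p = 0.0576). The adjusting surface was fitted over spots well above background, and its use near background, as for Tslp in 1G11-SOD3, was not tested. The same adjustment gave a call to the Csf2 copies in the middle, which were well above background on no array. With the processed signal of the scanner the Tslp change was -2.48 and called (limma adjusted p = 0.0157).

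Csf1 encodes the main growth and survival factor of macrophages, made as secreted and membrane-bound forms. Its variant 1 probe was printed 10 times, 8 times outside the middle and 2 times in it. Averaged over the 8 outside copies (7 on 1G11-SOD3 replicate 3, where 1 carried an outlier flag), it read 14.24, 14.03 and 14.86 in 1G11-mock and 13.69, 13.63 and 13.34 in 1G11-SOD3. All 1G11-SOD3 arrays lay below all 1G11-mock arrays, but the log2 change of -0.82 (SE 0.26, 95% interval -1.40 to -0.24) did not pass the test (limma adjusted p = 0.146). Across the single copies the log2 difference ran from -1.18 to 0.01 with a median of -0.91, and 7 of the 8 were below 0. The copy at 0.01 lay in row 280 and column 86, which is 24 rows beyond the edge of the middle.

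The copies in the middle went the other way. At row 187 and column 100 the difference was 0.49, and at row 173 and column 79 it was 3.64, where 1G11-mock replicates 1 and 2 carried an outlier flag and had no value. With the flagged spots left out, 1G11-mock replicates 1 and 2 rested on the copy at row 187 alone, at 13.62 and 13.43. Averages over both copies were 10.98 in 1G11-mock replicate 3 and 13.59, 13.41 and 13.50 in 1G11-SOD3. At row 187 alone, 1G11-mock replicate 3 read 12.14. The 1G11-mock values thus came from unlike sets of copies (log2 change 0.83, limma adjusted p = 0.550). Without 1G11-mock replicate 3 the change was -0.022, and with the position adjustment it was -0.55. With the flagged spots kept it was 1.96 and called (limma adjusted p = 0.0186).

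**Figure D2:**
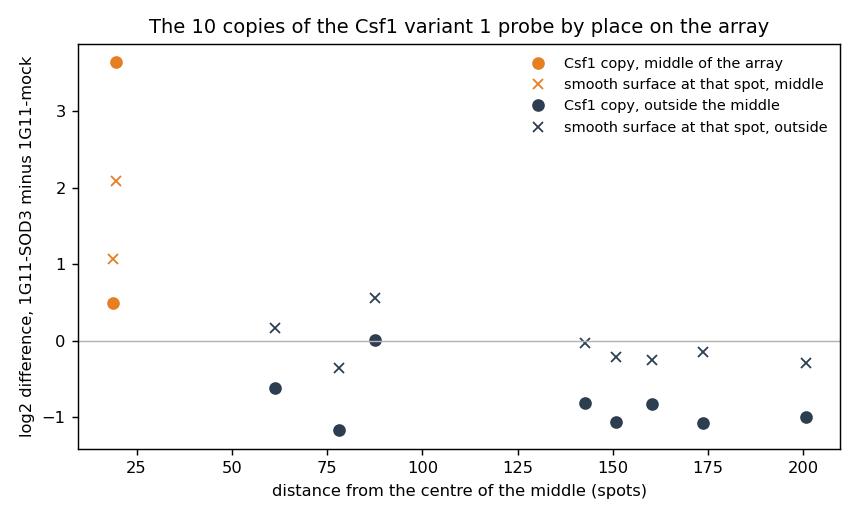
Log2 difference between 1G11-SOD3 and 1G11-mock (vertical axis) for each of the 10 copies of the Csf1 variant 1 probe, against the distance in spots from the centre of the middle (horizontal axis). Dots are the copies and crosses the smooth surface at the same place, fitted over spots well above background. Copies in the middle lie at 0.49 and 3.64, the latter with 1 1G11-mock array only, and the 8 outside copies lie between -1.18 and 0.01.

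Probes of transcript variant 3 of Csf1 did not show the lower level of the variant 1 probe. The variant 3 probe outside the middle read 11.61, 11.90 and 12.25 in 1G11-mock and 11.92, 12.42 and 12.28 in 1G11-SOD3, which overlap (log2 change 0.29, 95% interval -0.26 to 0.84, limma adjusted p = 0.664). Its overlapping partner in the middle read 11.62, 11.26 and 12.02 in 1G11-mock and 12.95, 13.13 and 12.20 in 1G11-SOD3. The lines did not overlap there, and the log2 change of 1.13 missed the threshold (SE 0.30, limma adjusted p = 0.0723). It was called with 75th percentile scaling (1.32), with cyclic loess (1.25) and without 1G11-SOD3 replicate 3 (1.43). With the position adjustment it was 0.71 (limma adjusted p = 0.201) and with the processed signal of the scanner 0.59 (limma adjusted p = 0.384).

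The difference between both kinds of Csf1 probe within an array was also compared, outside the middle. Variant 1 minus variant 3 was 2.63, 2.12 and 2.61 in 1G11-mock and 1.77, 1.21 and 1.06 in 1G11-SOD3. All 3 1G11-SOD3 arrays had the smaller difference, lower by a mean log2 of -1.11 (2-sided exact permutation p = 0.1, the smallest that 3 against 3 arrays can give). The shift was larger than the SD between replicates of either line (0.29 and 0.37).

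Il34 encodes the other ligand of CSF1R. It read 8.0, 6.61 and 6.57 in 1G11-mock and 8.10, 7.56 and 7.38 in 1G11-SOD3, with 1 of 6 values well above background. Csf3, the granulocyte colony-stimulating factor, read 7.70, 7.86 and 7.21 against 8.27, 7.98 and 7.25, also with 1 such value. Csf2, the granulocyte-macrophage colony-stimulating factor, was printed 10 times, and its 8 outside copies read on average 7.45, 7.37 and 7.66 against 7.03, 7.12 and 6.70. In the middle its 2 copies read 7.25, 6.74 and 7.20 against 7.36, 6.86 and 7.33, and those values overlap. The lowest signal that the scanner flagged as well above background was 6.65 on 1G11-SOD3 replicate 3 and between 7.74 and 8.09 on the other arrays.

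Kitl, which encodes the ligand of the receptor KIT, was not called in either direction. It read 12.12, 12.00 and 10.99 in 1G11-mock and 11.80, 11.75 and 11.83 in 1G11-SOD3. 1G11-mock replicates 1 and 2 lay above all 1G11-SOD3 arrays, and 1G11-mock replicate 3 lay below them. The log2 change was 0.09 (SE 0.30, 95% interval -0.57 to 0.74, limma adjusted p = 0.930), and without 1G11-mock replicate 3, the low array, it was -0.27. The interval spans differences of either sign. The Kitl spot lay at row 215 and column 114, just beyond the edge of the middle. The smooth surface there was higher in 1G11-SOD3 by 0.29, and with the position adjustment the Kitl change was -0.15. 1G11-mock replicate 3 was also the lowest 1G11-mock array for Sod3 and for the Csf1 variant 1 copies in the middle. The part of place in its low Kitl value was not tested.

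Flt3l, the ligand of FLT3, had a pair of probes, and both means were lower in 1G11-SOD3 without passing the test, the second at 0.038 in favor of 1G11-SOD3 with the processed signal of the scanner. The first read 11.02, 11.15 and 11.32 in 1G11-mock and 10.90, 10.88 and 10.39 in 1G11-SOD3, with no overlap (log2 change -0.44, 95% interval -0.96 to 0.08, limma adjusted p = 0.440). The second read 9.27, 9.65 and 10.38 against 9.11, 9.28 and 9.24 (log2 change -0.56, 95% interval -1.18 to 0.07, limma adjusted p = 0.410). Its lines overlapped by 1 1G11-mock array, replicate 1, which lay just below the highest 1G11-SOD3 array.

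The lymphocyte survival factors Il7 and Il15 were not measurable in either line. Il7 read 7.39, 7.04 and 6.57 in 1G11-mock and 6.91, 7.77 and 7.01 in 1G11-SOD3. Il15 read 7.93, 7.73 and 8.29 against 8.05, 7.70 and 7.69. The lines overlapped for both genes, and no transcript level can be read from values that are not above background.

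**Figure D3:**
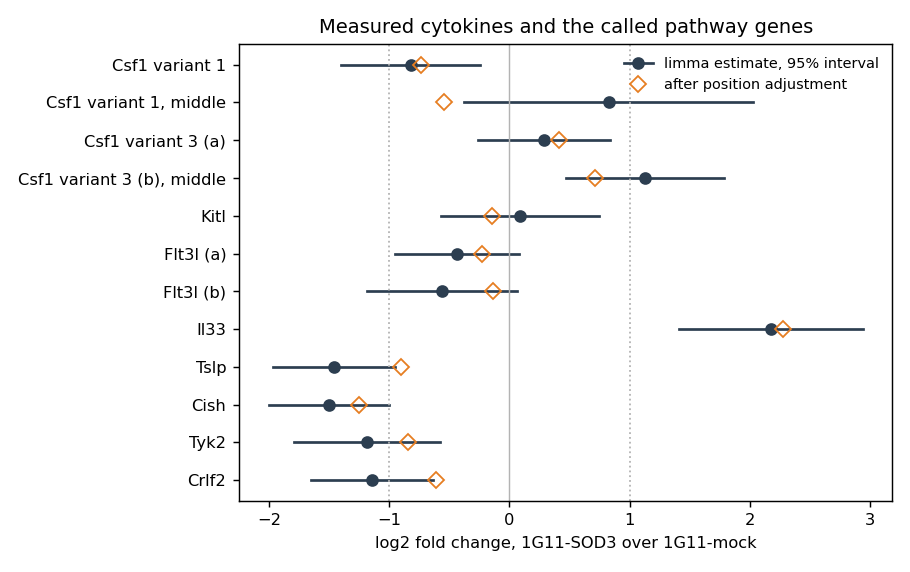
Log2 fold change, 1G11-SOD3 over 1G11-mock (horizontal axis), of the measurable cytokine probes and of the called pathway genes. Dots with lines are limma estimates with 95% intervals, diamonds are estimates after the position adjustment, and dotted lines mark a 2-fold change. Il33 stays at 2.18 and 2.27, whereas Tslp moves from -1.46 to -0.90 and Crlf2 from -1.14 to -0.61.

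Receptors and other genes of the same pathways came from lists of 58 genes, of which 54 had a probe outside the middle. Each gene was represented by its brightest probe there. Of all 20382 genes so represented, 1.19% were called higher and 1.93% lower. Among the 54, limma called 0 higher and 3 lower, and 23 were well above background on no array. At an unadjusted p under 0.05 there were 3 higher and 12 lower. The share of all genes at that unadjusted p was not computed, so these counts, here and by list below, cannot be set against it.

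Of 15 receptor genes, 9 were well above background on no array, among them Kit, Flt3, Il7r, Csf2ra and the IL-33 receptor genes Il1rl1 and Il1rap. Crlf2, the ligand-binding chain of the TSLP receptor, was the receptor that fell. It read 13.55, 13.38 and 13.66 in 1G11-mock and 12.60, 12.45 and 12.11 in 1G11-SOD3, with every 1G11-SOD3 array below every 1G11-mock array. The log2 change was -1.14 (SE 0.23, limma adjusted p = 0.0219), and with the position adjustment it was -0.61 and not called (limma adjusted p = 0.157). It was lost under 4 of 15 alternatives, the others being the processed signal (-0.28), 75th percentile scaling (-0.95) and the smaller normexp offset (-1.15). It also missed the threshold without 1G11-mock replicate 2 (-1.22), 1G11-mock replicate 3 (-1.07), 1G11-SOD3 replicate 2 (-1.17) or 1G11-SOD3 replicate 3 (-1.01). Csf1r, the receptor of CSF1 and IL-34, was well above background on all arrays and changed by 0.39 on the log2 scale without passing the test (limma adjusted p = 0.597). At an unadjusted p under 0.05, 5 of the 15 receptors were lower and 0 higher. The median log2 change over the receptors was -0.06, and over all genes it was -0.06 too. The receptor median includes the 9 genes that were well above background on no array.

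Of the receptor signaling genes, 13 of 16 had a probe outside the middle, and 2 of the 13 fell. Cish, which encodes a STAT5-induced inhibitor of cytokine receptor signaling, read 10.25, 10.01 and 10.26 in 1G11-mock and 8.42, 8.91 and 8.68 in 1G11-SOD3. It was well separated between the lines (log2 change -1.50, SE 0.23, limma adjusted p = 0.00494) and was called under each alternative and with any 1 array left out. Tyk2, a Janus kinase, read 10.56, 11.06 and 11.53 against 9.60, 9.93 and 10.06 (log2 change -1.18, SE 0.28, limma adjusted p = 0.0438). Tyk2 missed the threshold under 7 of 15 alternatives and with any 1 array left out other than 1G11-mock replicate 1. The median log2 change over the 13 was 0.0022, with 2 higher and 2 lower at an unadjusted p under 0.05.

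The other hematopoietic cytokines, a list with Il2, Il3, Il4, Epo and Thpo among its members, were well above background on no array in 9 of 10 cases. Limma called 0 of them, with 3 at an unadjusted p under 0.05, each of these well above background on no array. It called 0 of the 9 regulators of AU-rich mRNAs, with 2 at that unadjusted p. Of the 7 sheddases and processing enzymes, which include Adam10 and Furin, it called 0, with 1 at that unadjusted p. Their median log2 changes were -0.06, -0.26 and 0.02, in this order.

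**Figure D4:**
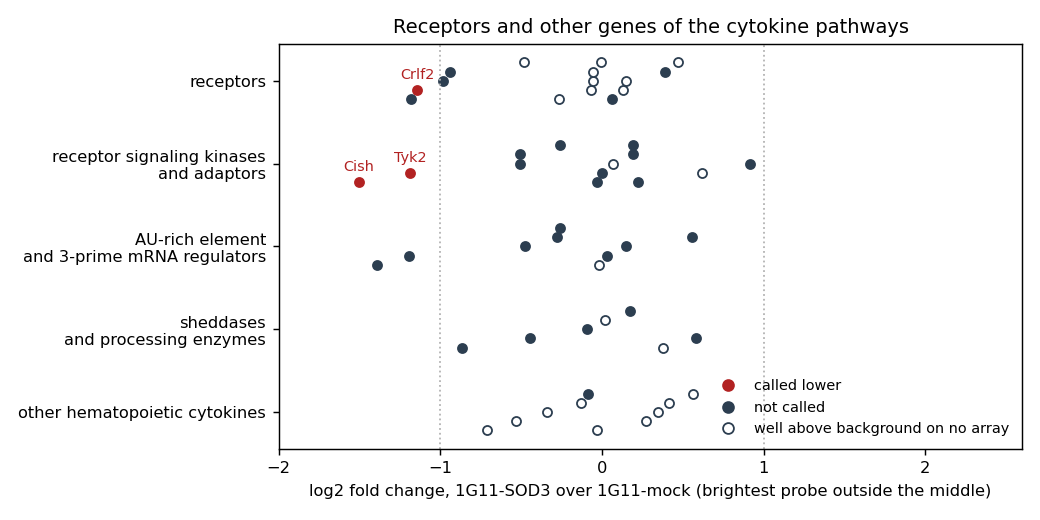
Log2 fold change, 1G11-SOD3 over 1G11-mock (horizontal axis), of each gene of the 5 pathway lists (vertical axis), by its brightest probe outside the middle. Red dots are called lower, dark dots are not called, and open dots were well above background on no array. Crlf2, Cish and Tyk2 are the called genes, between -1.14 and -1.50.

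Of the marker lists, the fibroblast or mural one separated the lines by its mean log2 intensity, and the means of the others overlapped. Of its 8 genes, 4 rose in 1G11-SOD3, against 1.19% of all genes called higher, and Rgs5 was well above background on no array. Col1a1 rose by 3.1 and Acta2 by 2.62 on the log2 scale, and both kept their call with any 1 array left out. Lum and Col1a2, well above background on no 1G11-mock array, lost theirs in some of these fits, which left 2 genes called without 1G11-mock replicate 2 or 3 and 3 genes without any other array. The mean log2 intensity of this list was between 9.41 and 9.73 on the 1G11-mock arrays and between 10.47 and 11.02 on the 1G11-SOD3 arrays. For the endothelial list it was 8.67 to 9.31 and 8.45 to 8.79, with 1 of 9 genes lower, Vwf, and 2 without 1G11-mock replicate 1. Limma called 0 of 8 hematopoietic genes (9.0 to 9.22 against 8.88 to 9.06) and 0 of 7 mammary epithelial genes (9.13 to 9.35 against 9.12 to 9.29), and 0 of these 15 had an unadjusted p under 0.05. Their part in the changes of Il33 and Tslp was not tested. In such bulk samples, fewer cells of a type and less RNA per cell cannot be told apart.

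The genes whose profile was closest to each called cytokine over the 6 arrays were taken from 12851 probes outside the middle, by the root mean square difference of centred log2 values. For Il33 these were Tmeff2 (0.271), Rdm1 (0.294) and Fndc1 (0.372). For Tslp they were Cish (0.104), BC021767 (0.127) and Bace2 (0.136). The distances are smaller for Tslp than for Il33, whose arrays spread more within each line.

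Promoter sequence was available in RefSeq (GRCm38.p6) for 5 of the 10 genes, Csf1, Kitl, Flt3l, Csf2 and Il33, in 6 windows from 250 bases before to 50 bases after a start. NF-κB is known to act at promoters through the κB motif, which was searched on both strands and found in 2 of the 6 windows and in 8.46% of all 32851. It is shown in capitals in the measured genes that held it, written 5′ to 3′ on the strand of the gene, with the motif itself on the opposite strand.
Csf1, chr3:107760589-107760648, minus strand: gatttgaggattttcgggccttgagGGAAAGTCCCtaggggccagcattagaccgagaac
Kitl, chr10:100015644-100015703, plus strand: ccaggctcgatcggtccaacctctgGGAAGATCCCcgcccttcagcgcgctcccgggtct
The motif lay 154 to 145 bases before the start of Csf1 and 152 to 143 bases before that of Kitl, genes that were not called outside the middle. The core of the CK-1 element of cytokine promoters, GAGATTCC, stood in none of the 6 windows and in 0.904% of all. These coordinates belong to another annotation than those of the array probes and cannot be set beside them.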

How the data were processed

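For each of the 6 arrays, the authors deposited Agilent Feature Extraction output (version 10.7.3.1 per the file headers) with mean spot and median background intensity, not normalized between arrays. They also deposited a table of log2 values, background corrected with normexp (offset of 50) and quantile normalized, in which each array had a median of 7.52. It was recomputed from median pixel intensities to within 0.005 and served as an alternative. Per the labels the authors used limma, with a version not given in the sources used here.

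Here, mean spot intensities were background corrected with normexp (offset of 50), taken to log2 and quantile normalized over non-control spots with limma 3.58.1 in R 4.3.3. Spots flagged as non-uniform or population outliers were left out, 133 to 197 per array. Copies of a probe were averaged separately in the middle of the array and outside it, and a probe counted as well above background where no fewer of its copies were flagged so than not. The lines were compared with limma's lmFit and eBayes, with Benjamini-Hochberg adjustment over 55961 values of 55681 probes. The procedure was tested on simulated data without a place effect, with changes larger than those of the called cytokines and pathway genes. That test does not bear on calls near the 2-fold limit. Precision was limited by 3 arrays per line.

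Gene names came from RefSeq accessions for 27656 probes and from the description for 1693, and 26332 had no symbol. Named were every member probe, pathway genes called outside the middle, and the 3 closest profiles to each called member. The values of 1 marker gene are not reported here. Members, lists and the bounds of the middle were chosen with earlier results of these data known. The position adjustment took off a Gaussian-kernel surface (SD of 9 spots), fitted over spots well above background on 3 or more arrays. The median SD among copies left out of that fit went from 0.307 to 0.133. The kernel SD was chosen by this same measure, over brighter replicated probes, so the lower value is no independent check.

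The main fit was unpaired, and replicate numbers were taken as pairs only in the replicate block, one of the alternatives below. Deviations from the group means correlated between same-numbered arrays by 0.141, 0.144 and 0.236 over 15178 probes. The replicate number also matched the slide column. Alternatives were other background corrections, offsets (16) and normalizations, median pixels, the processed signal, control or outlier spots kept, dim probes left out, a variance trend, a replicate block, the deposited table, the middle left out, copies averaged over the whole array, the position adjustment, and each array left out in turn. Summaries used pandas 2.3.3 and numpy 2.4.6 in Python 3.11.15, and plots used matplotlib 3.10.9.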

Additional observations from a re-analysis of the deposited data

How the results depend on the processing

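Il33 was called higher under all 15 alternatives (1.99 to 2.35 on the log2 scale) and with any 1 array left out (1.80 to 2.48). Tslp was called lower under 14 of 15 (-2.48 with the processed signal to -1.03 without background correction) and with any 1 array left out (-1.57 to -1.31), the exception being the position adjustment (-0.90). The Csf1 variant 1 probe outside the middle stayed below 0 and was called under none of them (-0.86 to -0.63, and -0.996 to -0.579 with 1 array left out). Averaged over the whole array, with the copies in the middle included, this probe was at -0.53 and not called. Its copies in the middle reversed with the processed signal (-0.029), the position adjustment (-0.55) and without 1G11-mock replicate 3 (-0.022, against up to 1.30 with another array left out). Kitl reversed with the processed signal (-0.40), the position adjustment (-0.15) and without 1G11-mock replicate 3 (-0.27, against up to 0.30 with another left out), and the second Flt3l probe with the processed signal (0.038). With the replicate block Il33 remained at 2.18 (limma adjusted p = 0.00053) and Tslp at -1.46 (limma adjusted p = 0.00608). That fit called 452 probes outside the middle higher and 792 lower. No call of the measurable cytokines or of Crlf2, Cish and Tyk2 changed with it. The processed signal called 677 higher and 7244 lower, with 3 cytokine genes called in place of 2, the third being Csf2, which is not above background, 75th percentile scaling 1079 lower, the smaller normexp offset 392 lower, the middle left out 356 lower, and the position adjustment 494 higher and 1 cytokine gene in place of 2. Leaving out 1 array gave 156 to 335 higher and 283 to 534 lower, and 2 cytokine genes each time. The 75th percentile scaling and the processed signal moved the median of all probes outside the middle to -0.35 and -0.50, the cause of which was not tested. For Csf2, Csf3, Il7, Il15 and Il34, signal over background was the limit.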
